A study of Mus musculus with 20 samples.

Results

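The comparison described here sets mouse colon organoids carrying oncogenic BrafV600E that had been selected to grow in base medium (selected organoids) against BrafV600E organoids that had not been selected (BRAF organoids), with both kept in base medium (BASE) for 48 hours. Its members were chosen by sample title, as 3 arrays of selected and 3 arrays of BRAF organoids, 6 of the 20 arrays of the series. The organoids came from the first part of the proximal colon of male mice, about 40 days old, that were heterozygous for a Cre-activable BrafV600E allele (Braf+/LSL), and they were grown in Matrigel. BRAF organoids had received Cre from a lentivirus, and the labels place the expression analysis 5 months after that induction. Selected organoids were BrafV600E organoids from the same numbered lines that had been kept for their ability to grow when niche factors were withheld, and the time this took is not given in the sources used here. Controls (EV), from the same heterozygous mice, had received the lentiviral backbone alone, so every organoid compared here had been infected with lentivirus. Each type was also profiled in ENSW medium. Per the labels, the niche factors of the organoid culture are EGF together with media conditioned by cells making Noggin, R-spondin or Wnt3a. The 3 lines of each type are the replicates. The labels do not say whether each line came from a separate mouse, so the p-values cannot be said to measure the spread between mice. They rest on the spread between arrays within the 6 groups of the fit, not on the 6 compared arrays alone. The same holds for the standard errors (SE) printed after ±, which can differ from an SE of the 6 compared arrays. That fit treats the base and ENSW arrays of the same culture as independent. Their residuals correlated at 0.525 when culture was fitted as a random block, so there are fewer independent cultures than arrays.

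Braf is a kinase that passes signals from Ras to MEK and ERK, and the V600E change keeps it active without an upstream signal. The colon epithelium is renewed from crypt stem cells that depend on Wnt and R-spondin, while EGF drives division and Noggin blocks the BMP signals that promote differentiation. Cells that leave the crypt stop dividing and become absorptive colonocytes or secretory goblet, enteroendocrine and tuft cells, so growth in base medium means growth with none of these factors supplied.

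RNA was labelled with Cy3 and hybridised to single-colour Agilent arrays, on which between 59.6% and 65.2% of probes were well above background in the 6 arrays. Levels are log2 signals from which the array's 75th percentile was subtracted, always in the order line 1, line 2, line 3, and a difference of 1 is a doubling. They are levels of 1 probe per gene and are not compared between genes, except where a dim signal is set against background. Across genes, arrays of the same group correlated at 0.944 to 0.972 and arrays of different groups at 0.913 to 0.952. The first principal component, with 42.1% of the variance, separated the groups, with selected organoids at -90.5, -51.6 and -55.3 and BRAF organoids at 25.5, 93.4 and 78.5. The second, with 26.1%, held line 1 of both groups at the positive end, at 83.5 in the selected and 54.2 in the BRAF array, against -67.3 to 0.98 in the other 4 arrays. Only 1 slide held both groups, selected line 3 and BRAF line 1, so slide and group are partly confounded. The median difference within that slide is given below for the colonocyte, replication, Wnt target, stem cell, fetal-like and interferon lists. It is not given for the other lists.

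The targeted gene did not separate the groups. Braf levels were -2.37, -2.69 and -1.92 in BRAF and -2.32, -1.92 and -2.53 in selected organoids, with a mean of -3.03 in EV organoids. The groups overlapped, with a difference of 0.070 ± 0.24 (SE of the 6-group fit, n = 3 per group). Its adjusted p was 0.894 by limma. The array cannot tell the V600E allele from the wild-type allele, so this checks neither genotype. Epithelial Epcam was well above background on all 6 arrays. Of 12 mesenchymal markers, Col1a1, Col3a1, Dcn, Lum and Pdgfra did not pass the filter on dim probes. The 7 measured were Acta2, Col1a2, Des, Fn1, Pdgfrb, Thy1 and Vim. Of these, 6 cleared background in some base medium array. Whether mesenchymal cells were present was not tested. The 9 measured blood and endothelial markers had a summed level of 4.48 to 4.70 in selected and 4.78 to 5.27 in BRAF organoids, with none passing the test.

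Selected organoids held less RNA of the mature absorptive colon cell than unselected BRAF organoids in the same medium. They held more RNA of DNA replication genes, in a family put together after values had been seen. Over the 21456 genes tested, 2096 passed limma's test at an adjusted p below 0.05, or 9.77% of all genes, with 993 higher (4.63%) and 1103 lower (5.14%) in selected organoids. A positive difference was found for 47.6% of all genes tested. Counts in the lists below are to be set against these shares. For the Wnt target, enteroendocrine, MHC, stem cell, Paneth and antimicrobial, and tuft lists, 5.56% to 10% of members were called, no clear excess over all genes. The arrays of the groups did not overlap for 97.3% of the called genes, against 23.3% of all genes tested. Falls were larger than rises. Among called genes the median difference was -1.37 for those lower and 1.00 for those higher, and 211 genes were more than 8-fold lower but only 24 more than 8-fold higher. Of the called genes, 145 were not well above background on any selected array and 45 on any BRAF array. The medians and fold counts just given use their fitted values, which rest on signals at background, and single genes of this kind are given below as bounds. The number of calls rested on single arrays: it fell to 840 without BRAF 2, 1055 without BRAF 3, 1249 without selected 3 and 1250 without selected 1, and reached 3373 without BRAF 1. A set of 687 genes remained called whichever 1 of the 6 arrays was left out. With slide as a fixed block 1330 genes were called, 700 of them shared with the 2096. A fit of the 6 arrays alone, with 4 residual degrees of freedom, called 232, of which 49 were higher and 183 lower, and without BRAF 2 the split was 292 higher and 548 lower.

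**Figure D1:**
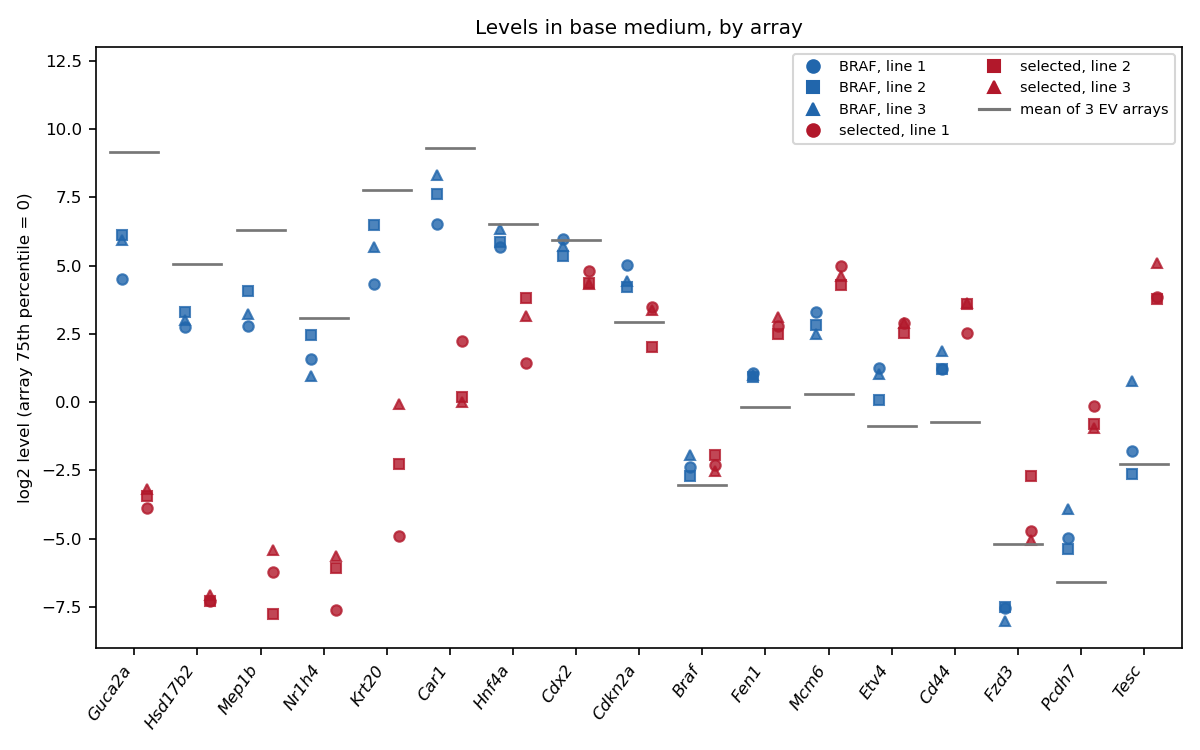
Levels of 17 genes in base medium, as log2 signal after subtraction of the array's 75th percentile (vertical axis), for BRAF (blue) and selected (red) organoids; circles, squares and triangles mark lines 1, 2 and 3, and the grey line is the mean of the EV organoids. Guca2a and Nr1h4 lie far lower in all 3 selected lines, Fen1 and Mcm6 lie higher, and the Braf points overlap.

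Markers of mature colonocytes were lower in selected organoids. Of 18 measured colonocyte markers, 12 fell and none rose, with a median difference of -3.63 over the list against -0.027 over all genes. The median was -2.91 when genes at background were held at their bounds. It was -2.84, -3.44 and -3.80 in lines 1, 2 and 3, and -3.13 within the slide that held both groups. The count was 10 to 13 when 1 array was left out, and 7 with slide as a fixed block or with the 6 arrays alone. In bulk RNA of this kind, fewer cells of a type and less RNA per cell cannot be told apart.

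Guca2a encodes guanylin, a peptide that sets fluid secretion through guanylate cyclase C. Its level was 4.50, 6.10 and 5.92 in BRAF and -3.86, -3.43 and -3.17 in selected organoids. Every selected line lay below every BRAF line, and the EV mean, 9.14, was higher than both. The difference was -8.99 ± 0.81 (SE of the 6-group fit, n = 3 per group), a 510.0-fold lower signal. Its adjusted p was 1.85e-05 by limma. The related peptide uroguanylin, encoded by Guca2b, read 0.063, 0.78 and -0.91 in BRAF organoids and was not well above background on any selected array. It was at least 41.2-fold lower there, where the bound sets the BRAF mean against the dimmest signal accepted as above background. Krt20, the keratin of differentiated surface cells, was 4.34, 6.50 and 5.69 in BRAF organoids and -4.91, -2.27 and -0.053 in selected organoids. All 3 selected lines were lower, but they spanned a wide range, with line 1 the lowest and line 3 nearest to the BRAF lines. Krt20 fell by 7.92 ± 1.17 on the log2 scale (adjusted p 0.00114). Car1, a carbonic anhydrase of the colon surface, went from 6.54, 7.63 and 8.31 to 2.24, 0.21 and 0.0097. The groups were again apart, line 1 being the highest of the selected lines, and Car1 fell by 6.68 ± 0.91 on the log2 scale (adjusted p 0.000637). Lypd8, a membrane-anchored protein that keeps bacteria away from the epithelium, fell by 7.77 ± 0.71 (adjusted p 2.09e-05). Relative to EV, the median difference of the colonocyte list in BRAF organoids was already -3.17. That comparison shares the BRAF arrays with the present one.

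The brush border, the carpet of microvilli on absorptive cells, lost several of its structural genes and surface enzymes. Of 22 measured members, a family put together after values had been seen, 11 fell and 0 rose, with a median of -1.72 that became -1.19 with genes at background held at their bounds. Alpi, Cdhr5, Krt20 and Vil1 are also in the colonocyte list, so the 2 counts are not separate. Leaving out 1 array at a time gave 9 to 13 lower genes, and 6 fell with slide as a fixed block or with the 6 arrays alone. Mep1b, a subunit of the membrane protease meprin, read 2.79, 4.08 and 3.21 in BRAF and -6.24, -7.75 and -5.40 in selected organoids. No selected array was well above background, and Mep1b was at least 429.7-fold lower (adjusted p 5.03e-06). Myo1a, the myosin that ties the actin core of the microvillus to the membrane, went from 3.01, 5.39 and 3.70 to -1.07, -2.43 and -2.20. The groups did not overlap, and the fall was 5.93 ± 0.55 (adjusted p 2.6e-05). Cdhr2, a cadherin of the links between microvilli, was 4.96, 6.15 and 5.43 in BRAF and 2.81, 2.69 and 2.81 in selected lines. The selected lines were nearly equal to each other, and the gene fell by 2.75 ± 0.32 (adjusted p 0.000212). Tmigd1, an epithelial adhesion molecule, fell by 8.48 ± 1.13 (adjusted p 0.000574). Vil1, the microvillar actin-bundling protein villin, had levels of 4.46, 6.05 and 5.93 and 4.60, 3.96 and 4.66, overlapped between groups and did not pass the test (difference -1.08, adjusted p 0.106). Without BRAF 1 it passed (difference -1.59, adjusted p 0.00899). Vil1 was singled out after its values were seen.

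Genes of bile acid sensing and transport fell in parallel. In a family of 15 measured bile acid and nuclear receptor genes, also put together after values had been seen, 7 fell and none rose, with a median of -2.10. The count was 4 without selected 1, and 5 without selected 3, BRAF 2 or BRAF 3. Nr1h4 encodes FXR, the nuclear receptor that senses bile acids. It read 1.57, 2.47 and 0.94 in BRAF organoids and -7.62, -6.05 and -5.65 in selected organoids. No selected line was well above background, so the gene was at least 132-fold lower (adjusted p 4.72e-06). Slc10a2, the apical sodium-dependent bile acid transporter, was -1.34, 1.60 and -0.70 in BRAF lines and not well above background in any selected line, at least 37.9-fold lower (adjusted p 0.000934). Slc51b, a subunit of the basolateral bile acid exporter, fell by 4.89 ± 0.83 (adjusted p 0.00294). Nr5a2, the nuclear receptor LRH-1, was at least 6.16-fold lower (adjusted p 1.7e-05), with no selected array well above background.

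The promoters of genes from these groups, taken as the 250 bases before the start of the gene from RefSeq on GRCm38.p6, were often poor in CpG. At most 5 CpG were found in 24.0% of tested genes with a promoter in the table, in 30.8% of the genes called lower and in 8.47% of those called higher. For colonocyte markers the share was 75% (12 of 16), for the brush border family 52.9% (9 of 17), for bile acid and nuclear receptor genes 57.1% (8 of 14), and for the xenobiotic metabolism genes described next 83.3% (15 of 18).

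Enzymes that modify foreign compounds, steroids and fatty acids fell with the colonocyte markers. Of 19 measured xenobiotic metabolism genes, 11 fell and none rose, and the list's median was -2.72. The count was 7 without BRAF 3 and 8 without BRAF 2, and 4 with slide as a fixed block. Hsd17b2, which inactivates estradiol and testosterone by oxidation, had levels of 2.75, 3.29 and 3.01 in BRAF organoids and -7.27, -7.29 and -7.05 in selected organoids. The lines within each group were close to each other, and no selected array was well above background. Hsd17b2 was at least 339-fold lower, with an adjusted p of 4.1e-10. Cyp4f14, a cytochrome P450 of the fatty acid hydroxylase family, read 1.49, 2.32 and 2.84 in BRAF lines and was not well above background in any selected line, at least 194-fold lower (adjusted p 2.71e-05). Cyp4b1, of another subfamily of the same P450 family, was at least 15-fold lower (adjusted p 0.00273). It did not pass after normexp background correction (adjusted p 0.0852). Ugt2b34, a UDP-glucuronosyltransferase, went from 2.72, 2.67 and 2.94 to -3.52, -7.82 and -7.29. Line 1 kept the most signal among the selected lines, all of which lay under the BRAF lines, and the fall was 8.99 ± 1.20 (adjusted p 0.000574). Selected lines 2 and 3 read no higher than Hsd17b2 on the same arrays, where that gene was not well above background. This is a comparison between different probes and does not show whether Ugt2b34 itself cleared background there. The size of the Ugt2b34 fall is therefore uncertain. Sult1b1, a sulfotransferase of thyroid hormones and phenols, fell by 7.75 ± 1.08 (adjusted p 0.000816).

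The glutathione S-transferases of the alpha class were among the largest falls, but their sequences are nearly identical and probes may read more than 1 of them. Gsta1 fell by 7.42 ± 1.12, Gsta2 by 7.38 ± 1.11 and Gm10639 by 7.18 ± 1.08 on the log2 scale, with adjusted p values of 0.00139, 0.00137 and 0.00134. Gsta1 levels were 6.45, 8.51 and 8.09 in BRAF and -2.36, 0.87 and 2.28 in selected organoids. Line 1 was the lowest in both groups, and the groups did not overlap. Across whole families chosen after values had been seen, 14 of 54 cytochrome P450 genes of families 1 to 4 fell and 1 rose. Of 22 glutathione S-transferases 7 fell and 1 rose, and 5 of 17 UDP-glucuronosyltransferases and sulfotransferases fell. These families hold most genes of the xenobiotic list, so their counts repeat some of the same genes. The P450 count was 3 without BRAF 3, 7 without selected 1 and 9 without selected 3, and the UDP-glucuronosyltransferase and sulfotransferase count was 2 without BRAF 2 and 3 without BRAF 3. Cyp1b1, the P450 that rose, read -6.49, -5.23 and -4.35 in BRAF and -1.12, -2.34 and -2.33 in selected lines. Its rise of 3.43 ± 0.83 (adjusted p 0.0201) did not pass without BRAF 2 or selected 1 (adjusted p 0.0633 to 0.0766).

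The other large falls named by the rule came from several families. Clec2h, a C-type lectin-like membrane protein, was at least 309.9-fold lower, with no selected array well above background (adjusted p 1.86e-07). Ddc, which makes dopamine and serotonin from their amino acid precursors, fell by 7.11 ± 1.32 (adjusted p 0.0051). The membrane protein gene Tm4sf20 fell by 7.08 ± 0.85 (adjusted p 0.00025) and the methyltransferase gene Mettl7b by 7.60 ± 0.51 (adjusted p 1.85e-06).

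**Figure D2:**
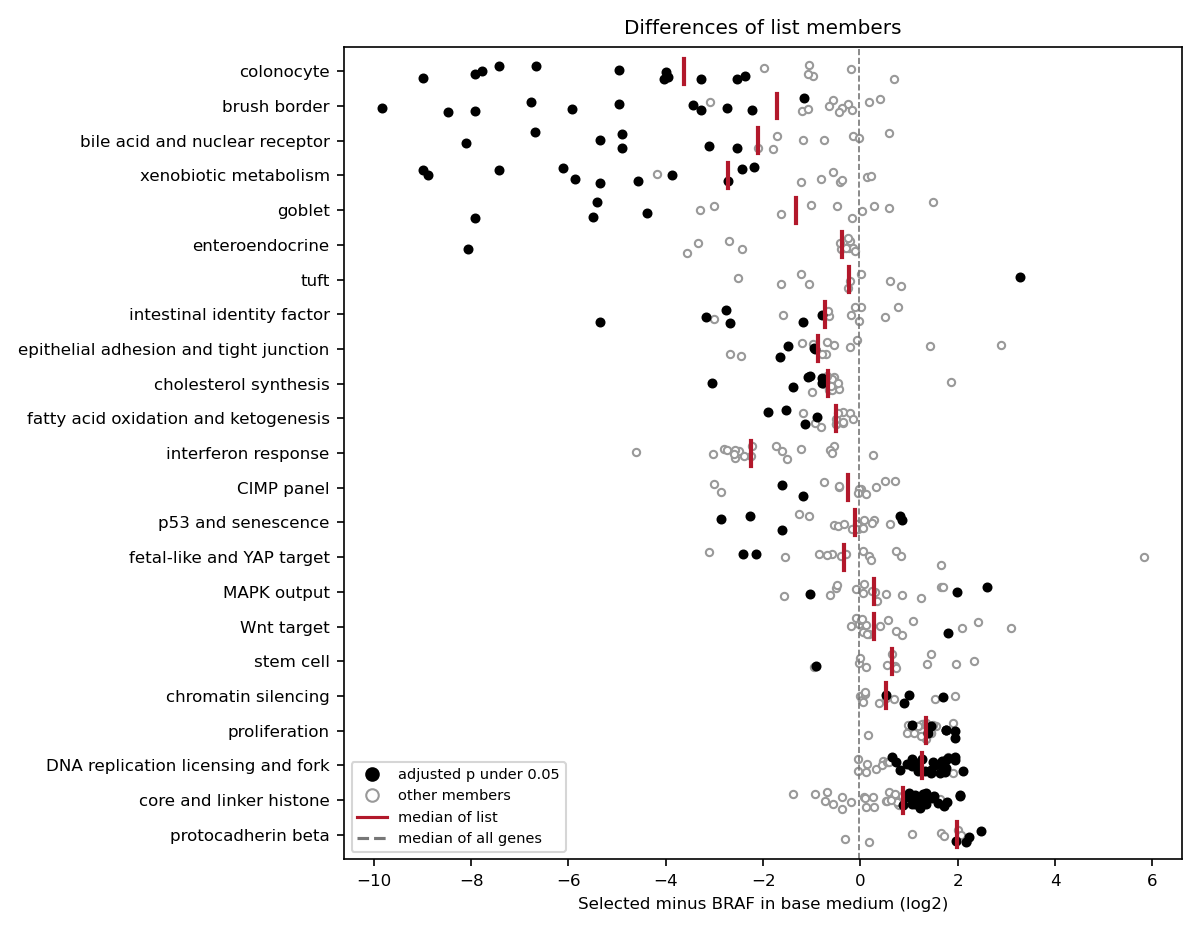
Differences between selected and BRAF organoids in base medium (horizontal axis, log2) for each measured gene of 23 lists (rows); filled points passed the test, red marks are list medians and the dashed line is the median of all genes. Colonocyte, brush border, bile acid and xenobiotic genes lie mostly to the left of the dashed line, and replication and histone genes mostly to its right.

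Several mucus products of goblet cells fell. Atoh1, the factor that specifies secretory cells, did not pass (difference -1.62 ± 1.69, adjusted p 0.598) and was singled out after its values were seen. Of 14 measured goblet markers, 4 fell and none rose, 4 had positive differences and the median was -1.32, and the same number fell whichever 1 array was left out. Tff3, the trefoil peptide of intestinal mucus, read 0.44, -1.10 and 2.63 in BRAF and -6.62, -7.73 and -7.45 in selected organoids. No selected array was well above background, and the gene was at least 65.9-fold lower (adjusted p 0.00166). Zg16, a lectin-like mucus protein, fell by 5.42 ± 0.91, Fcgbp, a mucus protein that binds the mucin network, by 5.49 ± 1.03, and Clca1, a mucus metalloprotease, by 4.38 ± 0.81 (adjusted p 0.00286, 0.00544 and 0.00498). Muc2, the gel-forming mucin itself, was -2.86, -6.24 and 0.059 in BRAF and -7.58, -6.57 and -4.81 in selected lines. BRAF line 2 lay below selected line 3, so the groups overlapped, and the difference of -3.31 ± 1.97 did not pass (adjusted p 0.323).

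All 14 measured enteroendocrine markers had negative differences, but 1 passed the test and the median was -0.38. That gene was Chgb, a granin of hormone granules. It was at least 70.7-fold lower (adjusted p 0.0153), and did not pass without BRAF 3 (adjusted p 0.0706). With line as a block 2 enteroendocrine markers fell, and after normexp or with the authors' values none did. Among 10 tuft markers 1 rose, a share near that of all genes called (9.77%). It was Alox5ap, which serves leukotriene synthesis and is also expressed in leukocytes. Its levels were -4.24, -4.63 and -3.32 in BRAF and 0.030, 0.52 and -2.89 in selected organoids, a difference of 3.28 ± 0.79 (adjusted p 0.0194) that did not pass without BRAF 2, selected 1 or selected 2 (adjusted p 0.0677 to 0.0842). The list's median was -0.24. None of 7 gastric markers and 1 of 11 Paneth and antimicrobial genes passed. The latter was Duoxa2, a maturation factor of the oxidase DUOX2, with a difference of -2.91 ± 0.79 (adjusted p 0.033), which did not pass without BRAF 2, BRAF 3, selected 2 or selected 3 (adjusted p 0.0903 to 0.134), after normexp or with the authors' values.

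Transcription factors that maintain intestinal identity were lower as well. Of 16 measured factors, 6 fell and none rose, with a median of -0.72. The count was 3 without BRAF 2 or BRAF 3, 4 without selected 1 or selected 3, 3 with slide as a fixed block and 0 with the 6 arrays alone. A single factor was called higher after quantile or median scaling and with the authors' values. Hnf4a, a nuclear receptor that acts with CDX2 on enterocyte genes, was 5.68, 5.88 and 6.32 in BRAF and 1.42, 3.81 and 3.16 in selected lines. Line 1 was the lowest of the selected lines, and Hnf4a fell by 3.17 ± 0.62 (adjusted p 0.00682). Its paralog Hnf4g fell by 2.76 ± 0.68 (adjusted p 0.0213) but did not pass without BRAF 2, BRAF 3 or selected 1 (adjusted p 0.0795 to 0.0884). Cdx2, the homeodomain factor that specifies intestine, showed a smaller fall. Its levels were 5.98, 5.34 and 5.71 in BRAF and 4.79, 4.37 and 4.34 in selected lines, without overlap, and the difference was -1.18 ± 0.25 (adjusted p 0.00943). The EV mean was 5.94, near that of the BRAF lines. Klf4 and Klf5, a factor of differentiated and a factor of dividing gut epithelium, fell by 2.68 ± 0.71 and 0.78 ± 0.21 (adjusted p 0.0297 and 0.0302). Klf4 and Klf5 were named after their values were seen. Klf4 did not pass without BRAF 2, BRAF 3, selected 2 or selected 3 (adjusted p 0.0821 to 0.131), and Klf5 did not pass without BRAF 2, BRAF 3, selected 1 or selected 3 (adjusted p 0.0665 to 0.11).

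In the opposite direction, genes of DNA replication were higher in selected organoids. The family of licensing and fork genes was assembled after values had been seen, so its count describes it and is not a test. Of its 42 measured members 26 rose and none fell, against 4.63% of all genes called higher. Positive differences were found for 40 of them, and the median was 1.27. By line it was 1.14, 0.96 and 1.76, and within the slide that held both groups 0.86. The count depended on single arrays: 10 genes rose without BRAF 2 or without BRAF 3, 13 without selected 1 and 15 without selected 3, 9 with slide as a fixed block and 8 with the 6 arrays alone.

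Fen1, the nuclease that trims Okazaki fragments, had levels of 1.06, 0.93 and 0.98 in BRAF and 2.79, 2.49 and 3.10 in selected organoids. All selected lines exceeded all BRAF lines, and the EV mean was -0.17. The difference was 1.80 ± 0.26 (SE of the 6-group fit, n = 3 per group), 3.49-fold, with an adjusted p of 0.00112. Mcm6, a subunit of the replicative helicase, was 3.29, 2.84 and 2.51 in BRAF and 4.98, 4.30 and 4.61 in selected lines. The groups did not overlap, and the rise was 1.75 ± 0.45 (adjusted p 0.0254), but it did not pass without BRAF 2, BRAF 3, selected 1 or selected 3 (adjusted p 0.0633 to 0.0982). Its partner Mcm4 rose by 1.75 ± 0.33 (adjusted p 0.00577) and kept its call whichever array was left out. Orc6, of the origin recognition complex, rose by 1.69 ± 0.22, Rfc3, of the clamp loader, by 1.53 ± 0.22, and Rpa2, of the single-strand binding complex, by 1.73 ± 0.30 (adjusted p 0.000557, 0.000983 and 0.0036).

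Histone genes, most of which are expressed in S phase, moved the same way. Of 47 measured genes, a family also chosen after values had been seen, 22 rose and none fell, with a median of 0.88. The family holds every core and linker histone gene named by cluster or as H1, among them H1f0, H1f10, H1f7 and H1f8, which are not bound to S phase and none of which passed. Histone genes of a class are near copies, so single genes are uncertain. The count was 13 without selected 1 or BRAF 3, 8 with slide as a fixed block and 0 with the 6 arrays alone. H3c4 rose by 1.28 ± 0.16 (adjusted p 0.000326), H4c11 by 1.71 ± 0.30 (adjusted p 0.00335) and H2ac15 by 1.31 ± 0.24 (adjusted p 0.00433). A list of general proliferation markers shares 7 genes, Mcm2 to Mcm7 and Pcna, with the licensing and fork family. All 25 proliferation genes had positive differences and 7 rose, with a median of 1.35. The count was 1 without selected 1, selected 3, BRAF 2 or BRAF 3, and 11 without BRAF 1. It was 2 with slide as a fixed block, 16 after normexp background correction and 14 with the authors' values. Mki67, the antigen of cycling cells, read 3.44, 2.29 and 2.04 in BRAF and 4.34, 3.65 and 3.81 in selected lines. Its difference of 1.34 ± 0.65 did not pass (adjusted p 0.216). The list's median in BRAF relative to EV organoids, from the same BRAF arrays, was 3.33.

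Of 14 chromatin silencing genes 4 rose and none fell. Hells, a chromatin remodeller needed for DNA methylation, was -2.16, -2.62 and -2.72 in BRAF and -0.82, -0.92 and -0.65 in selected lines. The groups were well apart, with a difference of 1.70 ± 0.37 (adjusted p 0.0113). Dnmt1, the maintenance DNA methyltransferase, rose by 0.99 ± 0.23, and Ezh2 and Eed, subunits of the complex that methylates histone H3 at lysine 27, by 0.90 ± 0.20 and 0.53 ± 0.13 (adjusted p 0.0162, 0.015 and 0.0178). With slide as a fixed block none of the list passed. Dnmt1 did not pass without BRAF 2, BRAF 3 or selected 1 (adjusted p 0.0622 to 0.0648), Ezh2 did not pass without BRAF 2, BRAF 3 or selected 1 (adjusted p 0.0537 to 0.0624), and Eed did not pass without BRAF 2 (adjusted p 0.0817).

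The promoters of Mcm6 and Hells are printed because both genes rose and both hold matches to the E2F site, the motif of the factors that switch on S-phase genes. Capitals mark matches to TTTGGCGC, TTTCCCGC, TTTCGCGC or TTTGCCGC on either strand in the 150 bases before the start (RefSeq, GRCm38.p6). Mcm6 lies at chr1:128359706-128359855, minus strand, and Hells at chr19:38930840-38930989, plus strand.
Mcm6: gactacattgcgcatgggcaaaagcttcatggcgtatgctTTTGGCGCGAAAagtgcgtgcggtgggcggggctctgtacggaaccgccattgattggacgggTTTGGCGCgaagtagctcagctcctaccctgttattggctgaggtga
Hells: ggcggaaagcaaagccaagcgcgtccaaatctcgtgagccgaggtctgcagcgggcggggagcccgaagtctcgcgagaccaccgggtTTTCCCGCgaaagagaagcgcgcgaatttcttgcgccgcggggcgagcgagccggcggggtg
Mcm6 holds 3 matches, of which those at 110 and 106 bases before the start overlap on opposite strands, and the third begins 47 bases before it. The match in Hells begins 62 bases before the start. Such a match lay in the 250 bases before the start of 25.7% of the replication genes with a promoter in the table (9 of 35) and of 6.86% of the genes called higher. The shares were 2.96% of the genes tested and 1.91% of all promoters.

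Targets of the ERK pathway were mixed. Of 18 measured MAPK output genes, 2 rose and 1 fell, with a median of 0.27. Etv4, an ETS factor induced by ERK, had levels of 1.23, 0.079 and 1.03 in BRAF and 2.89, 2.53 and 2.90 in selected organoids. The groups did not overlap, the EV mean was lower still at -0.89, and Etv4 rose by 1.99 ± 0.32 (adjusted p 0.00214). Its relative Etv1 rose by 2.61 ± 0.72 (adjusted p 0.0344) but missed the threshold whichever 1 array was left out (adjusted p 0.05 to 0.111). Epha2, an ephrin receptor, fell by 1.03 ± 0.29 (adjusted p 0.0374) and did not pass without BRAF 2, BRAF 3, selected 1 or selected 2 (adjusted p 0.0749 to 0.135). Dusp6, the phosphatase that limits ERK, read 4.24, 5.54 and 4.83 in BRAF and 3.47, 5.08 and 4.58 in selected lines, with overlap, and its difference of -0.49 ± 0.38 did not pass (adjusted p 0.457). Of 10 EGFR ligand and receptor genes 2 fell, the receptors Erbb3 (by 1.43 ± 0.29, adjusted p 0.00843) and Erbb2 (by 1.18 ± 0.27, adjusted p 0.0156). Erbb2 did not pass without BRAF 2, BRAF 3, selected 1 or selected 3 (adjusted p 0.0526 to 0.0697).

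Some Wnt targets and stem cell markers differed more between lines than between groups. Of 18 measured Wnt targets 1 rose and 0 fell, and the median was 0.29, or -1.16 within the slide that held selected line 3 and BRAF line 1. The gene that rose was Cd44, a hyaluronan receptor of crypt cells, with levels of 1.20, 1.23 and 1.88 in BRAF and 2.51, 3.58 and 3.62 in selected lines and a difference of 1.80 ± 0.43 (adjusted p 0.0179). It did not pass without BRAF 2, selected 2 or selected 3 (adjusted p 0.0553 to 0.0729). Lgr5, the R-spondin receptor that marks crypt stem cells, was -0.68, -7.54 and -6.62 in BRAF and 0.67, -7.71 and -7.44 in selected organoids. Line 1 of both groups was high and the other lines were near background, so the groups overlapped and the difference was 0.12 ± 2.42 (adjusted p 0.983). Axin2, a feedback inhibitor of Wnt signalling, was -0.69, -2.89 and -3.34 and 0.79, -3.06 and -2.94, again with line 1 of each group the highest (difference 0.57 ± 1.03, adjusted p 0.782). The labels give 1 base medium for all lines, and whether the line 1 cultures differed in their medium was not tested. Line 1 was also the highest of each group for Ascl2, a stem cell transcription factor, which was singled out after its values were seen. Ascl2 read 3.12, -5.07 and -3.99 in BRAF and 4.37, -5.51 and -4.87 in selected lines, and its difference of -0.024 did not pass (adjusted p 0.997). Among 13 stem cell markers, with a median of 0.64 and of -0.55 within that slide, 1 passed, Msi1, an RNA-binding protein, with a fall of 0.91 ± 0.23 (adjusted p 0.0237) that did not pass without BRAF 2, BRAF 3, selected 1 or selected 2 (adjusted p 0.068 to 0.1).

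Among 18 Wnt ligands and receptors, 2 Frizzled receptors rose and 1 fell. Fzd3 was not well above background on any BRAF array and read -4.73, -2.69 and -5.05 in selected lines, at least 2.49-fold higher (adjusted p 0.00281). After normexp background correction its difference was 0.35 and did not pass (adjusted p 0.481). It also did not pass with slide as a fixed block or with the 6 arrays alone (adjusted p 0.0929 and 0.0684). Fzd2 rose by 2.37 ± 0.51 (adjusted p 0.011) and Fzd5 fell by 1.23 ± 0.32 (adjusted p 0.0266). Fzd2 did not pass without BRAF 2 (adjusted p 0.058), and Fzd5 did not pass without BRAF 2 or selected 1 (adjusted p 0.103 to 0.122). None of 13 BMP pathway genes and none of 4 secreted Wnt antagonists passed. With line as a block or with the authors' values 2 BMP pathway genes were higher.

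Some of the CDK inhibitors, which hold cells out of the cycle, were lower. Of 18 measured p53 and senescence genes, 3 fell, all of them CDK inhibitors, and 2 rose. With slide as a fixed block 3 rose and none fell, and none passed with the 6 arrays alone. Cdkn1a, which encodes p21 and is the fourth CDK inhibitor of the list, did not pass (difference -0.54 ± 0.45, adjusted p 0.5). Cdkn2c, which encodes p18 and is outside the list, rose by 1.21 ± 0.30 (adjusted p 0.0235) but did not pass without BRAF 2, BRAF 3, selected 1 or selected 3 (adjusted p 0.0578 to 0.0878). Both were singled out after their values were seen. Cdkn1c, which encodes p57, was -0.31, 1.76 and -0.32 in BRAF and -1.85, -2.92 and -2.70 in selected lines. BRAF line 2 stood above the other BRAF lines, the groups did not overlap, and the fall was 2.87 ± 0.51 (adjusted p 0.00381). Cdkn2b, which encodes p15, went from 3.18, 3.72 and 4.37 to 0.67, 2.03 and 1.75, a fall of 2.27 ± 0.43 (adjusted p 0.00554). With slide as a fixed block and with the 6 arrays alone, neither passed (adjusted p 0.0656 and 0.109 for Cdkn1c, 0.11 and 0.0942 for Cdkn2b). Cdkn2a, whose transcripts encode p16 and p19ARF, was 5.03, 4.22 and 4.43 in BRAF and 3.47, 2.01 and 3.36 in selected lines, against an EV mean of 2.92. The groups did not overlap, selected line 2 being the lowest, and Cdkn2a fell by 1.61 ± 0.48 (adjusted p 0.0485). This was just inside the threshold, and the call was lost whichever 1 array was left out (adjusted p 0.0573 to 0.161), and also after normexp background correction, quantile normalisation, median scaling, with the authors' values and without the filter (adjusted p 0.0551 to 0.0686). Trp53 itself rose by 0.85 ± 0.13, from -1.58, -1.75 and -1.75 to -0.71, -1.02 and -0.80, without overlap (adjusted p 0.002). Eda2r, a p53-induced receptor, rose by 0.81 ± 0.20 (adjusted p 0.0236) and did not pass without BRAF 2, BRAF 3, selected 2 or selected 3 (adjusted p 0.0639 to 0.0982).

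The largest rises named by the rule came from unrelated families. Tesc, which encodes the calcium-binding protein tescalcin, was -1.78, -2.63 and 0.77 in BRAF and 3.84, 3.78 and 5.11 in selected organoids. BRAF line 3 was the nearest to the selected lines, none overlapped, and the rise was 5.45 ± 0.95, 43.8-fold (adjusted p 0.00352). Pcdh7, a protocadherin, went from -4.97, -5.39 and -3.91 to -0.16, -0.81 and -0.93, a rise of 4.12 ± 0.61 (adjusted p 0.00117). Bend5, which encodes a BEN domain protein, rose by 5.36 ± 1.04, Pcolce2, an enhancer of procollagen processing, by 4.69 ± 0.88, and Nfe2l3, a bZIP transcription factor, by 3.94 ± 0.71 (adjusted p 0.00641, 0.00543 and 0.00426). These 5 genes kept their calls whichever 1 array was left out. Mvb12b, a subunit of the ESCRT-I sorting complex, had the largest rise of the rule, 6.69 ± 1.88 (adjusted p 0.0383), with levels of -4.65, -7.10 and -1.09 in BRAF and 1.90, 2.68 and 2.66 in selected lines. The BRAF lines varied widely, with line 2 near background, so the size of the rise is uncertain. The selected lines lay above all of them. The rise did not pass without BRAF 1, BRAF 2, selected 1, selected 2 or selected 3 (adjusted p 0.0606 to 0.165). Ror2, a receptor of Wnt5a, rose by 5.70 ± 1.31 (adjusted p 0.0159) and did not pass without BRAF 2, BRAF 3 or selected 3 (adjusted p 0.0513 to 0.0798). Golm2 was not well above background on any BRAF array and was at least 4.57-fold higher in selected lines (adjusted p 0.00786). It did not pass after normexp background correction or with slide as a fixed block (adjusted p 0.166 and 0.098). In the clustered protocadherin beta family, chosen after values had been seen, 4 of 12 measured genes rose and none fell, with a median of 1.98 that became 0.84 with genes at background held at their bounds. The count was 3 without the filter on dim probes, 1 without selected 2, selected 3 or BRAF 2, and 0 after normexp background correction.

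Markers of mesenchymal cells were mixed. Of the 7 measured, 1 passed: Thy1, a surface glycoprotein of fibroblasts and T cells, read -1.86, -0.32 and -0.18 in BRAF lines and was not well above background in any selected line, at least 24.2-fold lower (adjusted p 0.000107). Vim, the intermediate filament of mesenchymal cells, was not well above background on any BRAF array and read -1.62, -4.67 and -2.83 in selected lines. Its difference of 3.38 ± 1.39 did not pass (adjusted p 0.142) but did with line as a block (adjusted p 0.0199), and the list's median was 0.094. Among 10 EMT factors, cadherins and related genes, 3 fell: Cdh1, which encodes E-cadherin, by 0.87 ± 0.25, Lamb3, a laminin chain, by 1.84 ± 0.43, and Itgb6, an integrin, by 1.35 ± 0.40 (adjusted p 0.0395, 0.017 and 0.0446). Cdh1 did not pass without BRAF 2, BRAF 3, selected 1 or selected 3 (adjusted p 0.086 to 0.147), Lamb3 did not pass without BRAF 2, selected 1 or selected 3 (adjusted p 0.0608 to 0.0842), and Itgb6 did not pass without BRAF 1, BRAF 2, selected 1 or selected 3 (adjusted p 0.056 to 0.194). The list's count was 1 lower after quantile or median scaling, without the filter and with slide as a random or fixed block, and with line as a block 2 genes were higher and 4 lower. Of 16 epithelial adhesion and tight junction genes, 4 fell. The tight junction protein gene Ocln fell by 1.65 ± 0.32 and the desmosomal cadherin gene Dsg2 by 0.96 ± 0.18 (adjusted p 0.00646 and 0.00521), and both kept their calls whichever array was left out. The claudin gene Cldn4 fell by 1.49 ± 0.32 (adjusted p 0.0116) and did not pass without BRAF 2 (adjusted p 0.0583). The count for the list was 2 without BRAF 2 and 1 with slide as a fixed block.

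Metabolic lists had smaller medians. Of 19 cholesterol synthesis and uptake genes 6 fell, 18 had negative differences and the median was -0.67. The count was 2 without selected 1 or BRAF 2, and 1 with slide as a fixed block. Fdft1, squalene synthase, read 2.87, 3.22 and 3.16 in BRAF and 2.09, 2.41 and 2.37 in selected lines, without overlap, and fell by 0.80 ± 0.16 (adjusted p 0.00907). With the mean of all its probes the Fdft1 difference was -0.48 and did not pass (adjusted p 0.119). It also did not pass with slide as a fixed block or with the 6 arrays alone (adjusted p 0.181 and 0.137). All 16 fatty acid oxidation and ketogenesis genes had negative differences and 4 fell, with a median of -0.50. Cpt1a, which brings fatty acids into mitochondria, fell by 1.13 ± 0.30 (adjusted p 0.031) and missed the threshold without BRAF 2, BRAF 3, selected 1 or selected 3 (adjusted p 0.05 to 0.129). None of the list passed without BRAF 2 or without BRAF 3, and 1 passed without selected 1 or selected 3. Of 16 glycolysis genes 3 fell, the glucose transporter Slc2a1 by 1.10 ± 0.31, the phosphofructokinase Pfkp by 0.98 ± 0.22 and the aldolase Aldoa by 0.49 ± 0.14 (adjusted p 0.0394, 0.0158 and 0.0447). The count was 1 after quantile normalisation, without the filter or with slide as a fixed block. Pfkp did not pass without selected 2 (adjusted p 0.0527), Slc2a1 did not pass without BRAF 2, BRAF 3, selected 1 or selected 3 (adjusted p 0.0905 to 0.172), and Aldoa did not pass whichever 1 array was left out (adjusted p 0.0558 to 0.138).

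Among markers of fetal-like epithelium and YAP targets, 2 of 16 fell: Cd55, a complement regulator, by 2.41 ± 0.43, and Il33, an alarmin cytokine, by 2.15 ± 0.40 (adjusted p 0.00394 and 0.00487). The list's median was -0.34, but 1.17 within the slide that held both groups, and with line as a block 3 fell and 1 rose. Of 14 genes of the panel used for the CpG island methylator phenotype of human colorectal cancer, 2 fell and 0 rose. These were Cdkn2a and Cdx2, described above. Of 17 Hox genes, Hoxd4 and Hoxd8, which give positional identity, fell and were not well above background on any selected array, at least 8.04-fold and 3.71-fold lower (adjusted p 0.00638 and 0.0155). Hoxd8 did not pass without BRAF 2 (adjusted p 0.069). After normexp and with the authors' values neither passed (adjusted p 0.156 and 0.0805 for Hoxd4, 0.294 and 0.161 for Hoxd8), and 1 Hox gene was called higher.

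Interferon response genes showed a large median without a call. Of 19 measured genes 18 had negative differences and the median was -2.26, yet limma called none, and 1 after normexp background correction. The median by line was -0.76, -2.50 and -2.79, and within the slide that held both groups it was -0.13. Irf7, the factor that amplifies the interferon response, shows the pattern and was singled out after its values were seen: it read -1.83, 2.84 and 0.93 in BRAF and -3.23, -1.84 and -2.07 in selected lines. BRAF line 1 lay far below the other BRAF lines, and the difference of -3.03 ± 1.11 did not pass (adjusted p 0.102). Without BRAF 1, 9 genes of the list were called lower. BRAF line 1 was also the BRAF array on the slide with selected line 3, so line and slide cannot be told apart here. Of 14 MHC and antigen presentation genes 1 passed, H2-K1, a class I heavy chain, with a fall of 1.49 ± 0.30 (adjusted p 0.00793). Class I genes are near copies, so the gene is uncertain.

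**Figure D3:**
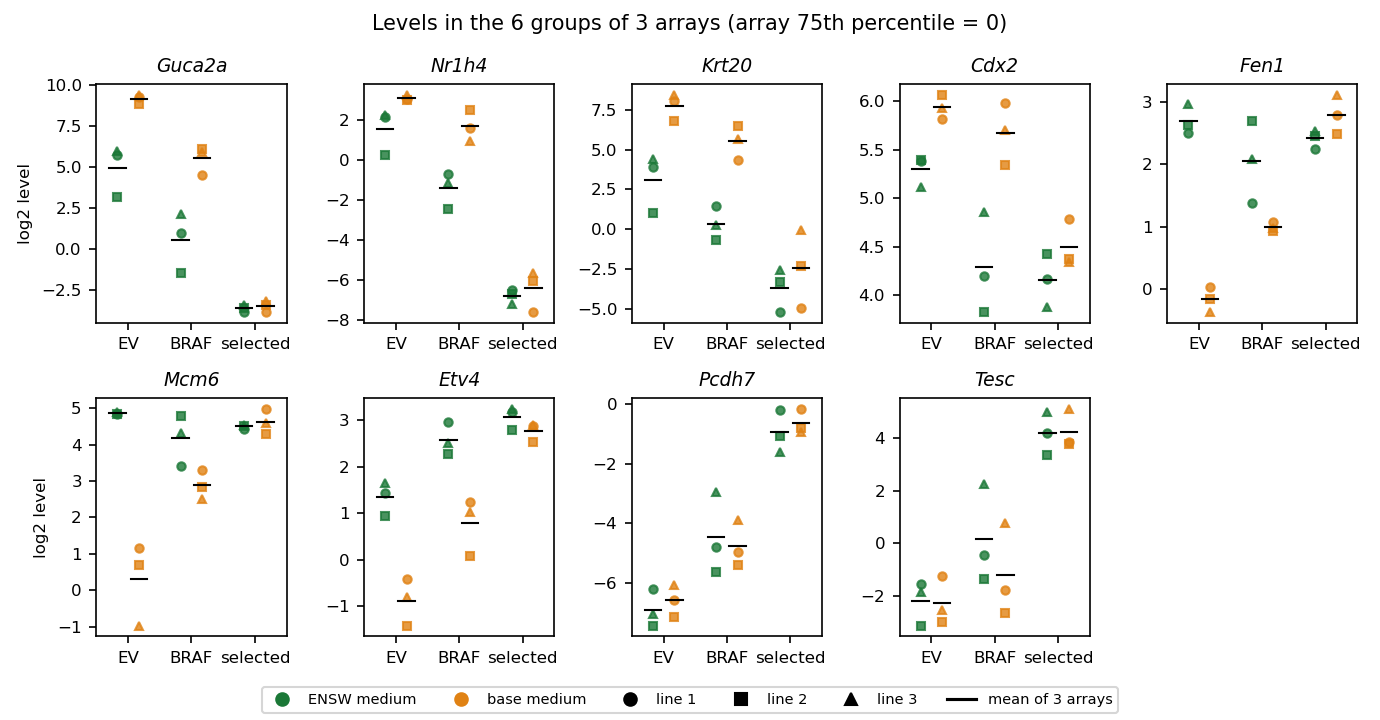
Levels of 9 genes (log2 signal minus the array's 75th percentile, vertical axis) in EV, BRAF and selected organoids in ENSW (green) and base medium (orange); points are lines and bars are means of 3. Fen1, Mcm6 and Etv4 are apart between BRAF and selected organoids in base medium and closer in ENSW, while Nr1h4 is lower in selected organoids in both.

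The same cultures in ENSW showed the difference in fewer genes. There 130 genes passed (0.606% of the 21456), 33 higher and 97 lower, of which 114 also passed in base medium with the same sign. These shared genes are 87.7% of the ENSW calls and 5.44% of the base calls. With line as a block 234 genes passed in ENSW. The count in ENSW was 73 without both arrays of BRAF 2, 74 without those of BRAF 1, 81 without those of selected 3 and 236 without those of selected 1. Of the 2096 genes called in base medium, 1868 had the same sign in ENSW and 2030 a larger difference in base medium, which is the medium in which they were called. The difference between media was tested as an interaction. limma called 0 genes for it, with 1799 at an unadjusted p below 0.05, when the 2 arrays of a culture were treated as independent, and 336 (1.57%) when the culture was a random block. Of these, 262 were also called in base medium.

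Differences in colonocyte and identity genes were also measured in ENSW. The median of the colonocyte list there was -1.42, with 4 genes lower, against -3.63 in base medium. Other lists had medians further below 0 in ENSW than in base medium. The goblet median was -2.70 there against -1.32, and that of Paneth and antimicrobial genes -1.64 against -0.77, with 1 and 0 genes called lower. Hsd17b2 differed by -7.30 in ENSW (adjusted p 4.26e-08, interaction 0.00537 with culture as a random block) and Nr1h4 by -5.39 (adjusted p 0.00062). Guca2a read 0.97, -1.47 and 2.12 in BRAF and -3.85, -3.63 and -3.41 in selected organoids in ENSW. That difference was -4.17 (adjusted p 0.0339), smaller than in base medium, with an interaction p adjusted over all genes of 0.0246 with culture as a random block. The Cdx2 difference was -0.13 in ENSW (adjusted p 0.925), and the interaction did not pass (adjusted p 0.0567).

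Replication genes differed little in ENSW. Their median difference was 0.15 in ENSW, where 0 of 42 passed. With culture as a random block 5 of them passed the test of the difference between media. Fen1 read 1.38, 2.69 and 2.09 in BRAF and 2.24, 2.45 and 2.54 in selected organoids in ENSW. The groups lay close there (difference 0.36, adjusted p 0.711), and the interaction had an adjusted p of 0.0407 with culture as a random block. For Etv4 the ENSW difference was 0.49 (adjusted p 0.666) and the interaction passed with culture as a random block (adjusted p 0.0247). For Trp53 the ENSW difference was -0.082 and the interaction also passed with culture as a random block (adjusted p 0.013). Tesc differed by 4.03 in ENSW (adjusted p 0.0849) and Pcdh7 by 3.52 (adjusted p 0.0177).

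**Figure D4:**
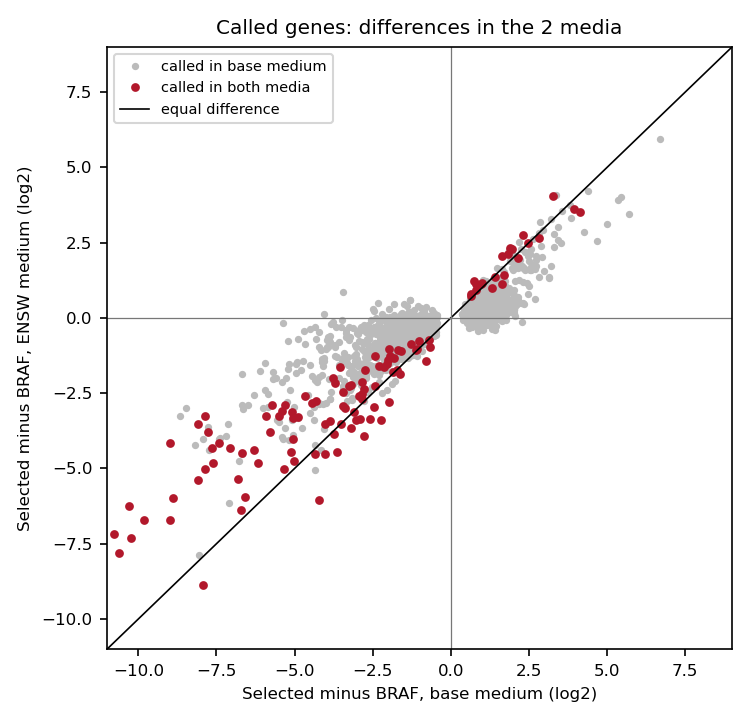
Difference between selected and BRAF organoids in base medium (horizontal axis, log2) and in ENSW (vertical axis, log2) for the 2096 genes called in base medium; red points, 114 genes, were called in both media. The genes were chosen for their difference in base medium, so most points lie closer to 0 on the vertical axis.

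**Figure D5:**
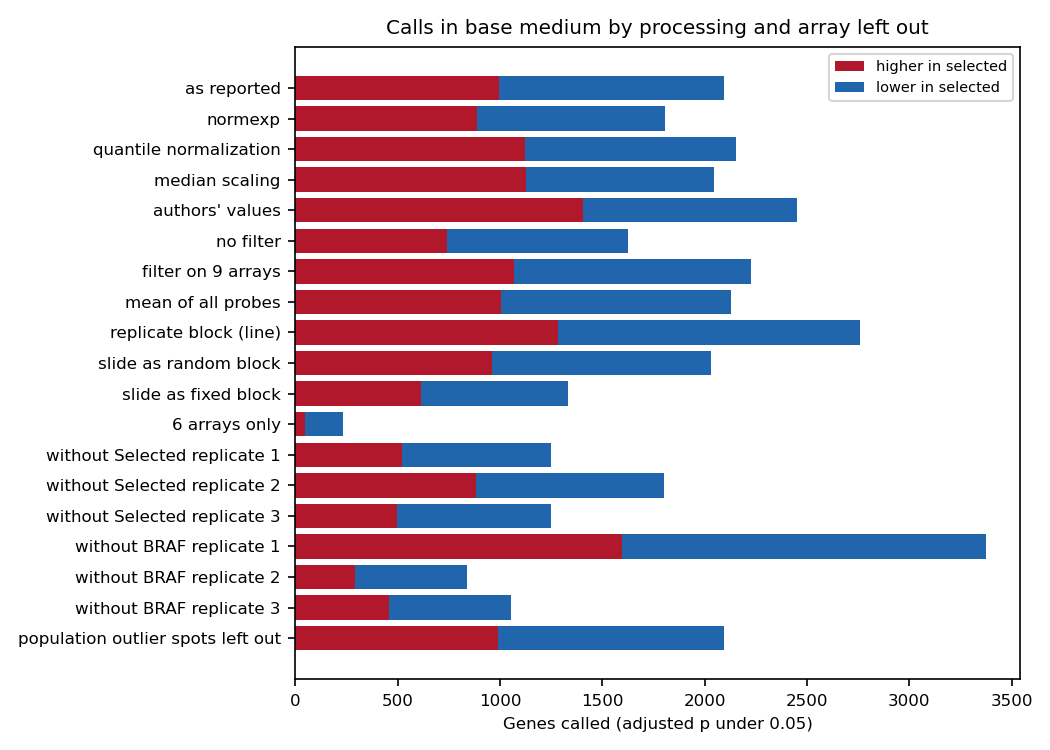
Numbers of genes called higher and lower in selected organoids in base medium (horizontal axis) under each processing setting (rows); red is higher and blue lower in selected organoids. The count ranges from 232 with the 6 arrays fitted alone to 3373 without BRAF 1, against 2096 as reported.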

How the data were processed

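Total RNA from 20 organoid samples was measured on single-colour Agilent arrays. The deposited intensity values were made with Feature Extraction 10.7.3.1 on a probe design of genome build mm9, per the file headers, which give background-subtracted and detrended signals not scaled between arrays. The authors' deposited value table holds log2 values of the same arrays, with scaling not given in the sources used here; they rank-correlated with the mean spot signals at 0.998 or more and served as an alternative. The log2 of the processed signal minus each array's 75th percentile was taken, without control spots or the 48 spots marked as outliers, and spots of the same probe were averaged. A probe entered the tests if at least 3 of 18 arrays had it well above background (26863 of 39429 did), and 1 probe per gene, that of highest mean, gave 21456 genes, 16117 of them with a symbol. Names were updated through RefSeq accessions for 26581 probes, symbols for 2597 and older symbols for 492, and 9759 kept the file's name.

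limma 3.58.1 in R 4.3.3 fitted 6 groups of 3 arrays (EV, BRAF and selected organoids in both media, 12 residual degrees of freedom; 2 wild-type arrays were not used), with Benjamini-Hochberg adjustment over all genes and a threshold of 0.05. A gene that no array of a group measured well above background is given as a bound, from the other group's mean against the higher of the dimmest accepted signal and its own. Between lines, deviations from the group means correlated at 0.373, 0.178 and 0.218 for arrays of the same number and at -0.255 to 0.0958 otherwise. Deviations within a group cancel out, so these correlations depend on each other. Selected line 2 correlated at 0.178 with BRAF line 2 and at 0.0958 with BRAF line 3. The correlations alone therefore do not settle the pairing by number, and the fit with line as a block is an alternative. Named genes were, among called genes with no overlap between groups, the 12 largest rises and falls measured in both groups, up to 4 bounds per direction, up to 4 members of each of 30 lists by smallest adjusted p, and 9 genes always named. Members and lists were chosen with earlier results of these data known. Gene families put together, and genes singled out, after values were seen are marked as such. Alternatives were normexp background correction (offset 50), quantile and median scaling, the authors' values, no filter or a filter on 9 arrays, the mean of all probes, line and slide blocks, the 6 arrays alone, leaving out each array, and, chosen after seeing the data, leaving out 2701 population outlier spots. No spot was saturated. Promoters came from RefSeq on GRCm38.p6 and matched 12598 gene names. Results for some genes are not reported here.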

Additional observations from a re-analysis of the deposited data

Results flagged for a closer look

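For 19 of the genes printed above, the difference between selected and BRAF organoids was itself different in base medium and in ENSW, by limma's test of the interaction with culture as a random block and adjustment over all genes. None of them passed that test when the arrays of a culture were treated as independent. The values below are the base difference minus the ENSW difference on the log2 scale.

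Among absorptive cell genes the fall was larger in base medium for Tmigd1 (-5.49, adjusted p 0.0283), Guca2a (-4.83, adjusted p 0.0246), Lypd8 (-3.99, adjusted p 0.0136) and Myo1a (-2.66, adjusted p 0.0423). The same held for Slc51b of bile acid export (-4.20, adjusted p 0.0315), the methyltransferase gene Mettl7b (-2.78, adjusted p 0.0216) and the CDK inhibitor gene Cdkn1c (-2.57, adjusted p 0.0394). Slc10a2 (-4.82, adjusted p 0.0216), Cyp4b1 (-4.35, adjusted p 0.0342), Clec2h (-4.05, adjusted p 0.00974), Thy1 (-3.77, adjusted p 0.0357) and Hsd17b2 (-2.92, adjusted p 0.00537) were at background in the selected arrays in base medium, so their values rest on signals with only a bound.

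Rises were larger in base medium for the replication genes Fen1 (1.44, adjusted p 0.0407), Rfc3 (1.26, adjusted p 0.0407) and Orc6 (1.25, adjusted p 0.0423). They were also larger for the histone genes H2ac15 (1.22, adjusted p 0.0491) and H3c4 (0.957, adjusted p 0.0269), for Etv4 (1.50, adjusted p 0.0247) and for Trp53 (0.930, adjusted p 0.0130).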

How the results depend on the processing

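In base medium the 2096 calls became 1330 with slide as a fixed block and 232 with the 6 arrays fitted alone, which have fewer residual degrees of freedom, and 840 to 3373 when 1 array was left out. Normexp, other scalings, the authors' values, other filters, the mean of probes, a random slide block and leaving out population outlier spots gave 1625 to 2452, and the share of higher calls was 47.4% as reported, 57.3% with the authors' values, 21.1% with the 6 arrays alone and 34.8% without BRAF 2. With line as a replicate block, which pairs arrays of the same number, 2760 genes passed and none of the 92 called genes printed lost its call. In ENSW the 130 calls became 85 after normexp, 234 with the replicate block (line) and 73 to 236 without both arrays of a culture. The interaction went from 0 to 336 calls with culture as a random block. Of the 92 called genes printed, 39 missed the threshold with slide as a fixed block, 61 with the 6 arrays alone, 32 without at least 1 array, and none changed sign in any setting run. Normexp ended 13 of these calls, the authors' values 8, no filter 7, quantile normalisation 6, median scaling 5, and the mean of probes and a random slide block 3 each. Among genes printed without a call, Vim gained one with line as a block, and Irf7 and Vil1 without BRAF 1.

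Uncalled genes changed sign as follows. Ascl2 differed by 0.31 after normexp, 0.077 after quantile normalisation, 0.050 after median scaling and 0.24 with the authors' values. With slide as a fixed block the values were -1.77 for Axin2, -0.19 for Braf, -5.11 for Lef1, -2.87 for Lgr5 and -2.98 for Nkd1, and with a random slide block -0.70 for Lef1 and -0.34 for Lgr5. Braf was at -0.022 after normexp. Leaving out 1 array gave -3.21 to 2.53 for Ascl2, -0.69 to 1.38 for Axin2, -0.11 to 0.27 for Braf, -2.21 to 2.00 for Lef1, -2.63 to 2.25 for Lgr5 and -1.48 to 4.48 for Nkd1. The causes were not tested. The number of arrays limits precision, and genes at background have only a bound.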

Other observations

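Line 1 differed from lines 2 and 3 in base medium for further Wnt pathway genes, in selected and BRAF organoids alike. These genes were singled out after their values were seen, and no test was made between lines, which have 1 array each per group. Lef1, a transcription factor that binds beta-catenin and is itself a Wnt target, read -1.73, -7.61 and -6.83 in BRAF and -0.46, -7.70 and -7.51 in selected organoids. The level was high in line 1 of both groups and near the floor of the array in the others. Nkd1, a feedback inhibitor of Wnt signalling, read -4.70, -6.35 and -6.85 in BRAF and 4.24, -7.68 and -7.22 in selected organoids. Here selected line 1 stood far above every other array, and BRAF line 1 was the highest BRAF line by a smaller margin. The difference between groups did not pass for Lef1 (0.17 ± 2.23, adjusted p 0.974) or for Nkd1 (2.42 ± 3.05, adjusted p 0.669) by limma.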
